A study of Mus musculus with 4 samples.

Results

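The genes described here are the 45 members of a set of actin cytoskeleton and motility genes, chosen by name, among the 50600 genes of each count table. All 45 matched a row through GENCODE gene identifiers and all 45 were measured in each of 4 libraries. Every library is RNA of mouse primary cells of the C57BL/6NJ strain with the label regulatory T cell, a CD4 T cell type that restrains immune responses. The 4 libraries form 1 group, replicates 1 to 4, from separate biosamples under 1 donor record. The labels give no age, no sex and no treatment, cite a protocol for differentiating CD4 T cells, and the headings of the count columns hold the word activated before a mark of 0 h. No second group was analysed here, so members were compared with each other within a library and between libraries. A p-value concerns either the spread between these 4 samples or the mean ratio of 2 related genes over them. The labels do not say which of that spread is technical, and replicates 1 and 2 differed from 3 and 4 in sex-linked RNA, given below, so the 4 are not all repeats of 1 sample.

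Actin is a protein that cycles between free monomers and filaments, and a T cell crawls, rounds up and presses against other cells by building and dismantling those filaments. Profilin and thymosins hold the monomers, the Arp2/3 complex starts branches when proteins of the WASP and WAVE families switch it on, capping proteins stop growth, cofilin and coronins help to take filaments apart, and myosin pulls on them. Small GTPases such as Rac, Cdc42 and Rhoa decide where this happens. Many of these proteins have a form that is mostly found in blood cells and a relative that is widespread, so which relative a cell transcribes is part of its description.

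Levels are given in TPM, a count divided by the gene's exon length and scaled to the same sum in every library, as mean ± SD over the 4 libraries unless a value is given for each. Total counts per library ran from 23000465 to 62090744, and the least covered member still had at least 83 counts in every library. T cell markers were high, with Cd3e at 485 ± 20.1 TPM and Cd4 at 1067 ± 31.4 TPM, while Foxp3, the factor that defines the labelled lineage, was detected in every library but low, at 8.28 ± 0.867 TPM. The 6 B cell markers summed to 101, 61.7, 61.8 and 22.1 TPM in replicates 1 to 4, and all 6 varied between libraries (edgeR adjusted p of 0.05). Of the other regulatory T cell markers Tnfrsf18 was higher, at 107 ± 3.805 TPM, while Ctla4 lay at 7.77 ± 0.959 and Ikzf2 at 1.34 ± 0.194 TPM, and Il2ra varied between libraries, at 6.22, 3.63, 9.13 and 3.11 TPM. The 6 CD8 and NK cell markers summed to 75.6, 88.7, 80.9 and 73.6 TPM, mostly Cd8b1 (39.95 ± 2.55 TPM) and Klrd1 (32.6 ± 5.52 TPM), with Cd8a at 0.794 ± 0.288 TPM. The 6 macrophage and monocyte markers summed to 3.07 to 5.22 TPM, with Cd14 at 0 in 3 libraries, and 5 of the 6 stromal markers summed to under 1 TPM in every library, while Pecam1 lay at 163, 173, 143 and 143 TPM. The 6 markers of red cells and platelets summed to at most 3.56 TPM and the 6 of dendritic cells to at most 1.17 TPM.

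All 45 members reached 1 TPM in all 4 libraries, 39 had a mean of at least 100 TPM and 10 of at least 1000 TPM. In mean TPM, 8 members were among the 100 most abundant genes and 35 among the 1000 most abundant. The members took 3.84, 3.82, 3.83 and 3.93% of all TPM in replicates 1 to 4. Their median was 376 ± 16.4 TPM, beside 33.2 ± 0.685 TPM for the 9948 protein-coding genes at 1 TPM in all libraries. From the highest member, Actb, to the lowest, Vcl, the mean TPM differed 3147-fold. When the 45 were put in order of mean TPM, the ranges of the 4 libraries did not overlap in 18 of the 44 neighbouring places. Flna, Myh9, Msn and Actg1 stand next to each other in that order, and each overlaps the next. The overlap shows spread between libraries only, and the order also depends on the gene length used. With the length of the main coding transcript in place of all annotated exons, these 4 genes ranked 11, 7, 10 and 12.

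**Figure D1:**
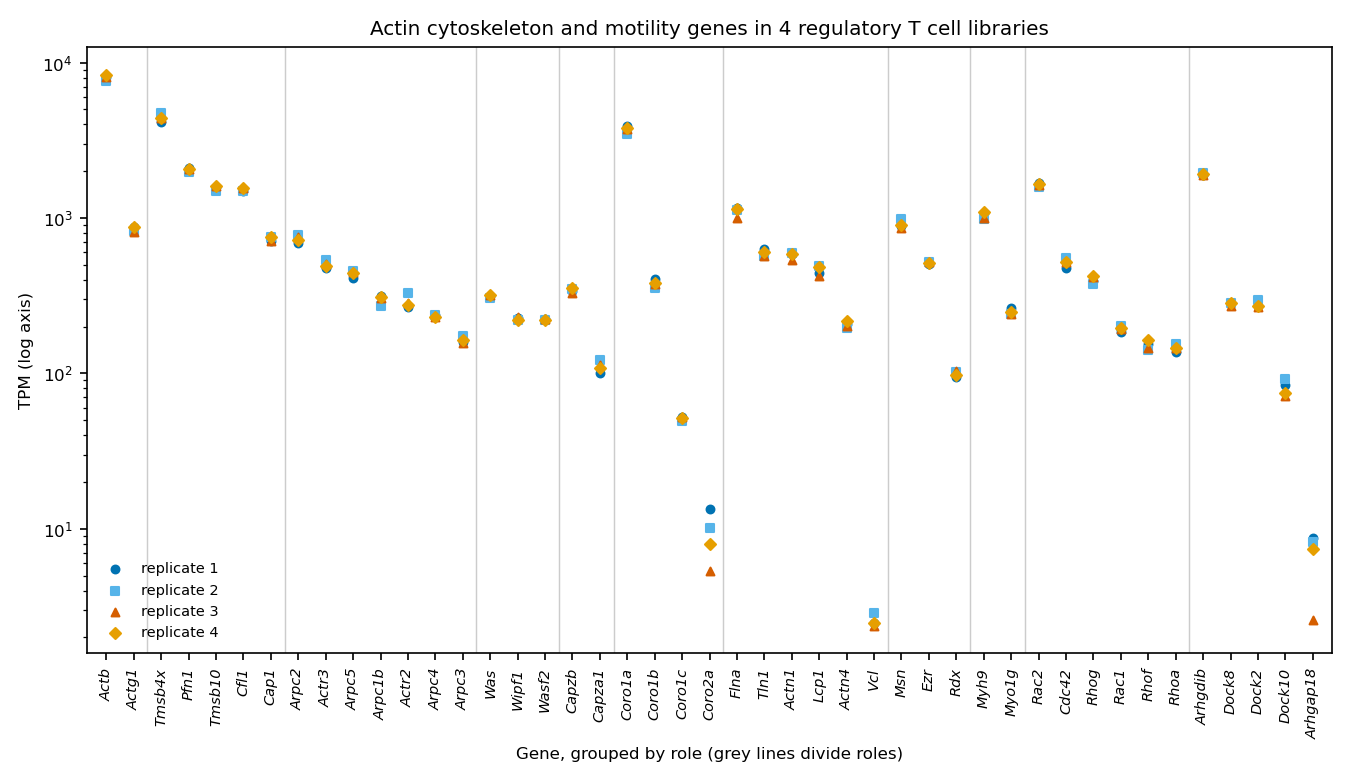
TPM (log axis) of each of the 45 genes in the 4 libraries, with genes grouped by role and ordered by mean TPM within a role. The 4 points of most genes lie on top of each other, while those of Coro2a (5.36 to 13.5 TPM) and Arhgap18 (2.59 to 8.74 TPM) are spread out.

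Actin RNA came mainly from the 2 cytoplasmic genes. Beta-actin, Actb (chromosome 5, 142903115 to 142906754 on the mouse build mm10), lay at 8017, 7583, 8049 and 8374 TPM in replicates 1 to 4, and gamma-actin, Actg1 (chromosome 11, 120345690 to 120348542), at 871, 819, 818 and 869 TPM. Both genes were even across libraries, with replicate 2 lowest for Actb, and no value of one came near the other. The log2 ratio of Actb to Actg1 was 3.25 ± 0.05 (SD, n = 4), a 9.48-fold difference, with Actb higher in 4 of 4 libraries. The muscle actins were far lower: Acta1 had 0.265 ± 0.0807 TPM, Acta2 0.0785 ± 0.137 TPM, Actc1 0.0213 ± 0.0425 TPM and Actg2 0.3403 ± 0.278 TPM. The Actg1 value is uncertain, because 57.4% of 50-base words sampled from its annotated transcripts also occur in genes elsewhere, chiefly Gm12715 (11.6 TPM), and fragments with several alignments were left out of the counts. The same share was 11.9% for Actb.

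Serum response factor, Srf, is known to bind a short element called the CArG box in front of many cytoskeletal genes, together with the actin-sensing partners Mrtfa and Mrtfb. These 3 genes, named after their values were seen, lay at 157 ± 11.2, 179 ± 9.40 and 17.6 ± 0.764 TPM. RefSeq promoter windows on GRCm38.p6, from 250 bases before to 50 after the start, were at hand for 41 members and not for Actb, Coro1b, Rac1 and Rac2. A CArG box, which has the same pattern on both strands, was found in 3 of the 41 (7.32%), Actg1, Arpc4 and Vcl, and in 1.81% of the 27025 genes of the table. The box was found in 1.46% of the table's 7988 protein-coding genes at 1 TPM. It overlapped no other motif searched in these 3. The 250 bases before the start of each are printed because these 3 genes carry the same element at very unlike levels, 844, 235 and 2.54 TPM, with the box in capitals and read 5′ to 3′ on the gene's strand.
Actg1, chr11:120348496-120348745, minus strand: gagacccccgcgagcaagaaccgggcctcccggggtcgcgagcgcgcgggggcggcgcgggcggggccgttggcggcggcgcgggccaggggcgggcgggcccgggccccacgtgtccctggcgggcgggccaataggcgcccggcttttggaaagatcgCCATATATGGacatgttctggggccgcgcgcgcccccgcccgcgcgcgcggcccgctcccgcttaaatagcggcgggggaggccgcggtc
Arpc4, chr6:113377863-113378112, plus strand: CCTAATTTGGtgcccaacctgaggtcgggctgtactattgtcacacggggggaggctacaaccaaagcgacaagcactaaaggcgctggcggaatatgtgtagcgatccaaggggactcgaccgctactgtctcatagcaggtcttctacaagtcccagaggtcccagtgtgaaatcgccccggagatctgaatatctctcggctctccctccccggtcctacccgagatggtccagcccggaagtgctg
Vcl, chr14:20929148-20929397, plus strand: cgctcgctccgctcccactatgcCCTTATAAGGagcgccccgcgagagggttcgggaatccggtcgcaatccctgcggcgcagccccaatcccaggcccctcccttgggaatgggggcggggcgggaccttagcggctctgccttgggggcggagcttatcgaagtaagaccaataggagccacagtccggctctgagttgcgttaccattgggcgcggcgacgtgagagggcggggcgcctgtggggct
The box begins 90 bases before the start in Actg1, 227 in Vcl and 250, the edge of the window, in Arpc4. A match is letters only and does not show that the factor binds there. GC boxes (GGGCGG or CCGCCC) were found in 33 of the 41 members (80.5%), beside 38.2% of all genes in the table and 70.4% of its 7988 protein-coding genes at 1 TPM. The Ets core CCGGAAG or its reverse complement CTTCCGG was in 13 (31.7%), beside 9.93% and 23.3%. Matches of different motifs overlapped in 1 of the 53 windows of members.

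Genes for proteins that hold or recycle actin monomers had the highest summed level of the 11 roles, with 26.7% of the members' TPM. Thymosin beta 4, Tmsb4x, which keeps monomers out of filaments, lay at 4138, 4758, 4375 and 4392 TPM, highest in replicate 2 and lowest in replicate 1. Its relative Tmsb10 lay at 1592, 1497, 1599.9 and 1596 TPM, lowest in replicate 2. Tmsb4x exceeded Tmsb10 2.81-fold, with no overlap, though 47.9% of the sampled words of Tmsb10 occur in genes elsewhere and none of those of Tmsb4x do. Profilin 1, Pfn1, which feeds monomers to growing ends, lay at 2091, 1973, 2058 and 2075 TPM, whereas Pfn2 had 2.22 ± 0.254 TPM. Cofilin 1, Cfl1, which severs filaments, lay at 1483, 1492, 1559.5 and 1566 TPM. Its relatives were far lower, Cfl2 at 16.2 ± 1.802 TPM and Dstn at 11.3 ± 0.9203 TPM, so that Cfl1 exceeded them 93.99-fold and 134-fold. Cap1, which helps to recharge monomers, lay at 731 ± 25.3 TPM and its relative Cap2 at 1.97 ± 0.126 TPM.

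The Arp2/3 complex holds 1 copy of each of its subunits, and the 7 subunit genes measured here were all present but at unlike levels. Arpc2 was highest with 686, 779, 754 and 722 TPM and Arpc3 lowest with 159.5, 175, 157 and 163 TPM, and the others lay between them: Actr3 at 503 ± 25.9, Arpc5 at 439.6 ± 21.7, Arpc1b at 299.96 ± 18.8, Actr2 at 288 ± 27.6 and Arpc4 at 235 ± 3.89 TPM. The highest subunit exceeded the lowest 4.30-fold to 4.79-fold within the libraries. Which subunit was lowest rests on the gene length: with the length of the main coding transcript in place of all annotated exons, Arpc3 moved to 349 TPM and Arpc4 became lowest at 167 TPM, with a range of 3.97-fold to 4.51-fold. For Actr3, 41.1% of sampled words occur in genes elsewhere, chiefly Gm8822, and 12.2% of the exon bases of Arpc4 lie in exons of Ttll3 on the same strand, where fragments may have been left out.

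**Figure D2:**
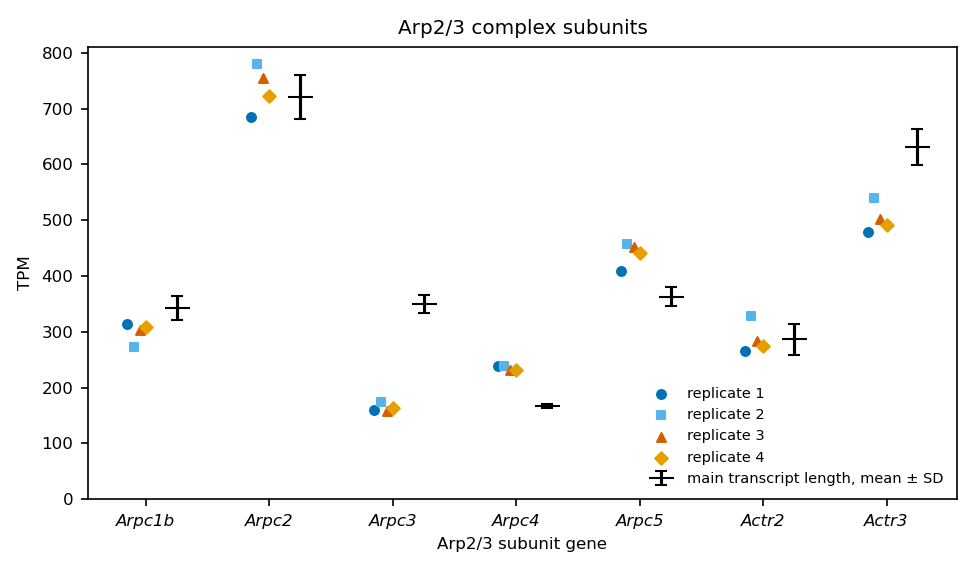
TPM of the 7 Arp2/3 subunit genes in the 4 libraries (coloured points, length of all exons) and the mean ± SD over them with the length of the main coding transcript (black). Arpc2 is highest on both scales, and Arpc3 lies at 164 TPM on the first and 349 TPM on the second.

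In 3 subunit positions a second gene can take the place of the main one. Arpc1b, the form known from blood cells, exceeded Arpc1a (80.6 ± 1.34 TPM) 3.71-fold, though 15.9% of its sampled words occur in genes elsewhere, chiefly Gm5637. Arpc5 exceeded Arpc5l (68.2 ± 2.41 TPM) 6.43-fold, and 2.28-fold with main transcript lengths. Actr3b had 44 counts over the 4 libraries and 0.419 ± 0.204 TPM, at most 0.556 TPM in any library.

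Activators of Arp2/3 lay at a middle level. Was, the gene of the Wiskott-Aldrich syndrome protein, lay at 314, 307, 321 and 322 TPM, and Wipf1, whose product binds and stabilises that protein, at 229, 219.5, 231 and 221 TPM. Wasf2, a WAVE protein that acts at the leading edge, lay at 225, 219, 225 and 222 TPM. The 4 libraries of Wipf1 and Wasf2 overlap, and those of Was lie above both. Was exceeded its widespread relative Wasl (21.5 ± 0.787 TPM) 14.7-fold, and Wipf1 exceeded Wipf2 (41.4 ± 1.38 TPM) 5.43-fold. The other WAVE genes were nearly silent, with 5 counts for Wasf1 over all libraries and 0.00662 ± 0.0132 TPM for Wasf3.

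Capping and coronin genes differed within their roles. The beta subunit of capping protein, Capzb, lay at 344 ± 13.01 TPM and the alpha subunits at 111 ± 9.24 TPM for Capza1 and 68.5 ± 5.07 TPM for Capza2. The order of the alpha subunits is not settled, since Capza1 was the higher in 4 of 4 libraries by all exons (1.62-fold) and the lower in 4 of 4 by main transcripts, and 66.1% of the sampled words of Capza1 occur in genes elsewhere, chiefly Gm3608. Coro1a, the coronin of blood cells, whose loss is known to deplete peripheral T cells, was the third most abundant member at 3882, 3446, 3753 and 3813 TPM. It took 89.4% of the coronin members' TPM. Coro1b lay at 379 ± 20.4 TPM and Coro1c at 51.6 ± 1.51 TPM, so Coro1a exceeded them 9.84-fold and 71.97-fold, or 41.5-fold for the second with main transcript lengths. Part of Coro1b's words (13.8%) also occur in Ptprcap transcripts.

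Filament crosslinkers were abundant, and of the adhesion linkers talin was high and vinculin low. Filamin A, Flna (chromosome X, 74223461 to 74249820), which crosses filaments, lay at 1155, 1125, 1002 and 1138 TPM, lowest in replicate 3. The bundling protein L-plastin, Lcp1, lay at 460.3 ± 32.1 TPM, or 791 TPM by its main transcript, and its relatives Pls1 and Pls3 at 0.0671 ± 0.0259 and 0.202 ± 0.124 TPM. Talin 1, Tln1, which joins integrins to actin, lay at 628, 571, 569.9 and 608 TPM, while Tln2 had 3 counts over the 4 libraries. Vinculin, Vcl, which binds talin at stretched adhesions, was the lowest member of all at 2.47, 2.86, 2.38 and 2.47 TPM, on 94, 262, 83 and 231 counts. No library of Vcl reached 3 TPM, and none of Tln1 fell under 569 TPM. Of the alpha-actinins Actn1 was higher, at 583, 595, 535 and 582 TPM, than Actn4, at 207, 195, 203 and 219 TPM. This pair was the only one of 31 whose second gene was higher in 4 of 4 libraries, by a log2 ratio of -1.48 ± 0.10 for Actn4 over Actn1.

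Moesin led the membrane linkers and Myh9 the myosins. Msn (chromosome X, 96096042 to 96168552), which ties actin to the plasma membrane, lay at 886, 981, 866 and 895 TPM, highest in replicate 2. Its relatives Ezr and Rdx lay at 504, 519, 521 and 510.5 TPM and 94.5, 102, 104 and 98.1 TPM, so Msn exceeded them 1.76-fold and 9.08-fold with no overlap in any library, or 2.79-fold and 14.1-fold with main transcript lengths. The heavy chain of nonmuscle myosin IIA, Myh9, lay at 1078, 981, 1006 and 1094 TPM. The other heavy chains of its class were low or not seen, with Myh10 at 0.2302 ± 0.0848 TPM and no count for Myh14. Myo1g, a class I myosin of blood cells, lay at 248 ± 9.43 TPM, and its relative Myo1f at 0.6802 ± 0.226 TPM. Among the other class I myosins measured, Myo1c was highest at 10.4 ± 1.13 TPM.

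Among the GTPases the blood cell form Rac2 led at 1675, 1579.8, 1641 and 1663 TPM, and the widespread Rac1 lay at 184, 200.2, 192 and 195 TPM. Rac2 exceeded Rac1 in 4 of 4 libraries by a log2 ratio of 3.09 ± 0.08, 8.51-fold. Cdc42, which drives polarity and fine protrusions, lay at 519.6 ± 31.2 TPM. Rhog lay at 402 ± 22.03 and Rhof at 151 ± 10.6 TPM, a 2.66-fold difference per length. Rhoa, the GTPase that activates myosin contraction, lay at 146 ± 6.35 TPM and exceeded Rhob (16.3 ± 2.91 TPM) 9.01-fold, or 30.6-fold with main transcript lengths. Its place is sensitive to length: the file counts 7494 exon bases for Rhoa against 2197 in its main coding transcript, which would put it at 345 TPM and move it from rank 38 to rank 25 of the 45. Rhoa and Arpc3 were the 2 members whose level more than doubled by this change of length.

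Among regulators of the GTPases the inhibitor Arhgdib was abundant and the exchange factors lay at a middle level. Arhgdib, which holds these GTPases in the cytosol, lay at 1887, 1952, 1901 and 1919 TPM, nearly level across libraries, and Arhgdia, its widespread relative, at 1046 ± 48.1 TPM, a 1.83-fold difference. Dock2, the exchange factor that activates Rac in lymphocytes, lay at 273, 298, 265 and 273 TPM and Dock8, which acts on Cdc42, at 284, 283, 272 and 286 TPM. These 2 overlap: Dock2 was the higher in 1 of 4 libraries, the log2 ratio was -0.02 ± 0.06, with p = 0.625 in an exact sign-flip test (two-sided). By main transcript lengths Dock2 was the higher in 4 of 4, at a log2 ratio of 0.81. Dock10 lay at 84.5, 92.4, 71.8 and 74.95 TPM, lowest in replicate 3. Arhgap18, which switches such GTPases off, was low and is described with the spread between libraries.

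Over the 31 pairs of related genes, the first was higher in 4 of 4 libraries in 29, the second in 1, and Dock2 over Dock8 was mixed. In the exact sign-flip test (two-sided) each of the 30 pairs of 1 sign had the lowest p possible with 4 libraries, 2 of 16 sign patterns, which is above 0.05. Adjusted over the 31 pairs by Benjamini-Hochberg, this exact p was 0.129. In 6 pairs the second gene had a mean under 1 TPM (Wasf1, Actr3b, Myh10, Myo1f, Tln2 and Pls3). The size of the ratio there depends on the 0.1 TPM added before taking logs, most of all for Wasf1 and Tln2. Only its sign is read here.

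**Figure D3:**
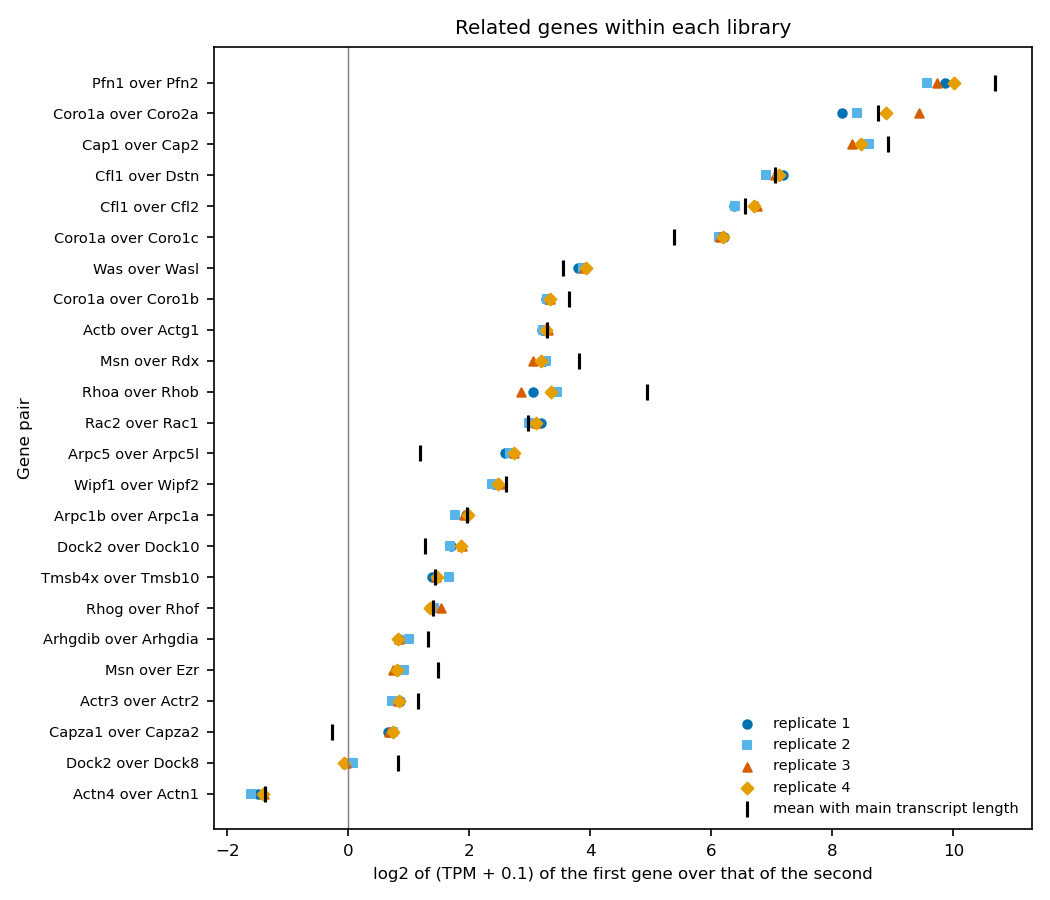
Log2 of (TPM + 0.1) of one gene over that of a related gene within each of the 4 libraries, for 24 pairs whose second gene has a mean of at least 1 TPM, and the mean ratio with the length of the main coding transcript (black bar). Points right of 0 mean that the first gene is higher. Actn4 over Actn1 lies left of 0 in all 4 libraries, and the black bar is across 0 from most points for Capza1 over Capza2 and Dock2 over Dock8.

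Spread between libraries was tested for all genes with enough counts, and 2 of the 45 members varied more than genes of their level, Coro2a and Arhgap18 (edgeR, deviance at the trended dispersion, adjusted p of 0.05 over 12554 genes). This is 4.44% of the members, beside 1.13% of all genes tested (142 of 12554). The other 43 members had an unadjusted p of at least 0.22. In bulk RNA, fewer cells of a type and less RNA per cell cannot be told apart, so a difference between libraries is in RNA per library.

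Coro2a, a coronin (chromosome 4, 46536937 to 46602202), lay at 13.5, 10.04, 5.36 and 7.94 TPM in replicates 1 to 4, on 632, 1136, 231 and 919 counts. Replicates 1 and 2 were above replicates 3 and 4, and the highest exceeded the lowest 2.51-fold (edgeR adjusted p = 8.88e-07). Arhgap18 (chromosome 10, 26753421 to 26918648), a GTPase activating protein, lay at 8.74, 8.27, 2.59 and 7.43 TPM, on 419, 957, 114 and 879 counts. Replicate 3 alone was low, 3.38-fold under the highest, and the other 3 lay within 1.18-fold of each other (edgeR adjusted p = 4.04e-10).

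Arhgap18 was called only with replicate 3, while Coro2a lost its call narrowly without replicate 3 and kept it narrowly without replicate 1. Without replicate 3 Coro2a had an adjusted p of 0.0583 and Arhgap18 of 1.00 (edgeR, 3 libraries). In that fit 0 of the 45 members were called, with Coro2a at an unadjusted p of 0.000418. Without replicate 1 Coro2a had an adjusted p of 0.0489 and an unadjusted p of 0.000235 (edgeR, 3 libraries). Coro2a still ran over a 1.697-fold range in the other 3 libraries. Without replicate 3, 0.641% of all genes tested were called. The other 7 alternatives called both members, beside 0.398% of all genes with no low-count filter, 0.679% at a mean of at least 5 CPM, 1.11% with DESeq2 size factors, 0.948% with the DESeq2 dispersion trend, and 0.485%, 0.711% and 0.501% without replicates 1, 2 and 4. Adjusted p-values in these 7 ran from 6.16e-08 to 0.0489 (without replicate 1) for Coro2a and from 4.27e-10 to 1.44e-08 for Arhgap18, with the DESeq2 dispersion trend giving 4.90e-06 and 2.40e-09.

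Other values moved between the same libraries. The transcript Xist, which marks an inactive X chromosome, lay at 141, 148, 0.4598 and 0.271 TPM, and the Y-linked gene Ddx3y at 0.238, 0.0988, 75.2 and 76.1 TPM. Replicates 1 and 2 thus differ from 3 and 4 in sex-linked RNA, the same division as the levels of Coro2a. Arhgap18 was also higher in replicates 1 and 2 (8.74 and 8.27 TPM) than in 3 and 4 (2.59 and 7.43 TPM). Of these, only replicate 3 stood far from the rest. The division was not particular to Coro2a. In TPM, among members not called, replicates 1 and 2 were the higher in Dock10, Actn1, Arpc4 and Vcl. Replicates 3 and 4 were the higher in Actb, Cfl1, Rhog, Tmsb10 and Was. Scaled by TMM, Actn1, Arpc4 and Vcl no longer divided this way. Some others, such as Ezr and Wasf2, then had replicates 3 and 4 the higher. The share of all genes that order this way was not counted. The summed B cell markers were highest in replicate 1 and lowest in replicate 4, and Il2ra was highest in replicate 3. The part of these in the spread of Coro2a and Arhgap18 was not tested. Within 1 megabase of Arhgap18, 2 other genes were tested and 0 were called, with a lowest unadjusted p of 0.42, and around Coro2a it was 0 of 16, with a lowest unadjusted p of 0.135 (edgeR). The 4 X-linked members, Tmsb4x, Was, Flna and Msn, were not called, and in none of the 4 were replicates 1 and 2 the 2 higher libraries. In Was replicates 3 and 4 were the 2 higher (314, 307, 321 and 322 TPM in replicates 1 to 4), while Tmsb4x, Flna and Msn did not divide this way.

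**Figure D4:**
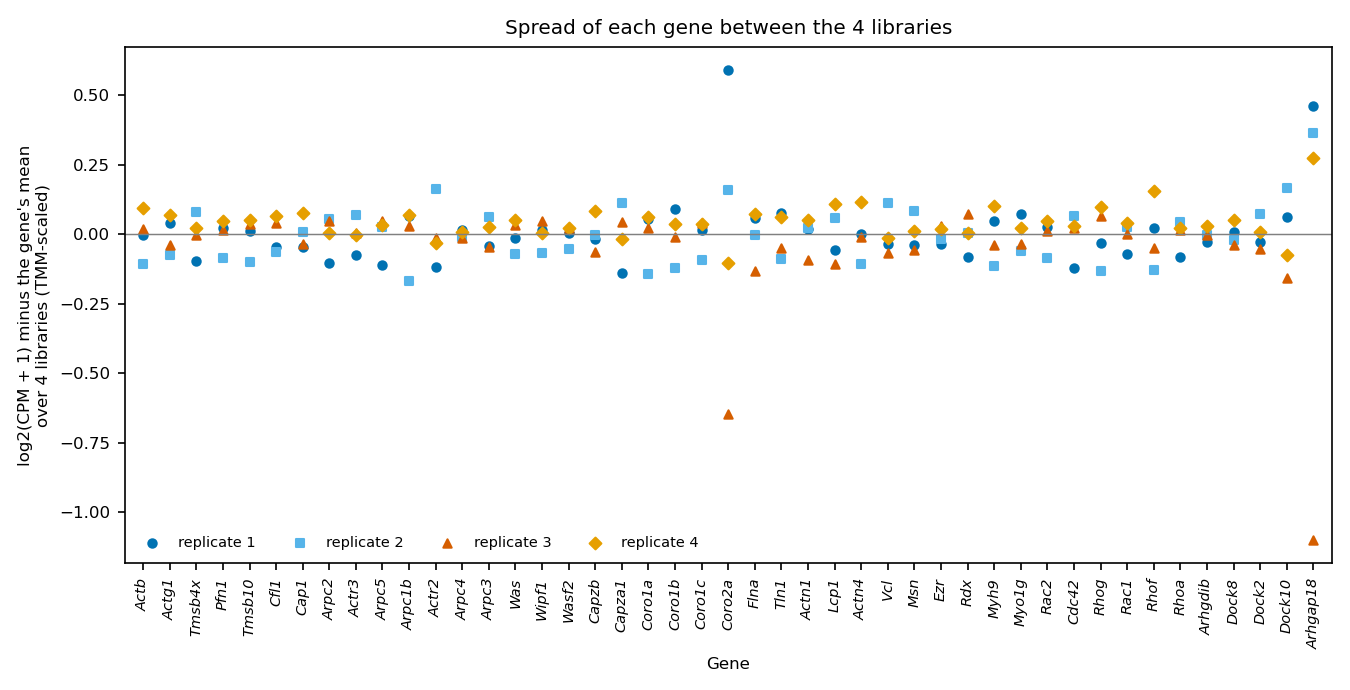
Level of each gene in each library as log2(CPM + 1), scaled by TMM, minus the gene's mean over the 4 libraries. The libraries of 43 genes lie within 0.32 of each other, while Coro2a spans 1.23 and Arhgap18 1.56.

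The rest of the members were even. Between the highest and lowest library the median member differed by 0.15 on the TMM-scaled log2(CPM + 1) scale, beside 0.22 for all genes tested and 0.17 for the 1871 tested genes with a mean of at least 100 TPM. For the 39 members at that level the median was also 0.15. Arpc4 had the narrowest range, 0.03, and among the genes not called Dock10 had the widest, 0.32, followed by Rhof and Actr2, both at 0.28. Replicate 4 was the lowest library for 0 of the 45 members and the highest for 21 (46.7%), whereas it was lowest for 23.0% and highest for 20.5% of all genes tested. The count of highest members depends on the scale, being 10 in TPM, 17 in CPM and 23 with DESeq2 size factors, while the count of lowest members was 0, 1 and 0. No test was made of this.

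Relatives and partners outside the set were measured from 2 further lists. Of 66 paralogs of the members, 26 reached 1 TPM in all libraries, 3 had a mean of at least 100 TPM and 9 had no count in any library, Pfn3 and Flnc among them. Their highest genes were Arhgdia, Coro7 (139 ± 10.3 TPM), Dock11 (122 ± 10.1 TPM), Arpc1a and Rhoh (79.3 ± 1.904 TPM). Of 89 other actin regulators, 82 reached 1 TPM in all libraries and 46 had a mean of at least 100 TPM. That list was led by Arhgap45 (2944 ± 217 TPM), a GTPase activating protein, the F-actin binding protein Cotl1 (1794 ± 144 TPM), the exchange factor Arhgef1 (1671 ± 137 TPM), the calponin Cnn2 (1357 ± 40.2 TPM) and the formin Fmnl1 (734 ± 26.0 TPM). None of the 33 paralogs and 84 regulators tested was called variable between libraries by edgeR or with the DESeq2 trend, beside 1.13% of all genes tested by edgeR, a share that would come to about 1 gene in lists of this size. At an unadjusted p under 0.05 were 1 and 4 of them, beside 5.23% of all genes tested.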

How the data were processed

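Total RNA of 4 libraries with 1 label was sequenced by the submitters. The labels name total RNA and cite a poly(A) library protocol. The files hold unnormalised counts of fragments, per the file headers, where featureCounts 1.4.6-p4 counted paired-end fragments with both ends aligned over exons of GENCODE M13 genes, with the strand setting 2 (reverse-stranded) and without fragments that align in several places or to several genes. Coordinates are on mm10, the build per the labels.

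TPM was computed here from counts and exon length. GENCODE M21 (GRCm38) gave symbols for 50376 of 50600 genes (99.6%). The members and lists were chosen with earlier results of these data known. Named genes are the 45 members, the second gene of each of 31 pairs, and the 5 highest of each further list; other names were chosen after values were seen. Spread between libraries was tested with an intercept-only glmQLFit (edgeR 4.0.16 under R 4.3.3, TMM scaling, genes kept by filterByExpr), its residual deviance at the trended dispersion being set against chi-square on 3 degrees of freedom, with Benjamini-Hochberg adjustment over 12554 genes. DESeq2 1.42.0 gave alternatives. The procedure was tested on simulated data drawn at the trended dispersion, with some genes changed in 1 library. There it called 43 of 100 genes changed 1.5-fold and 80 of 100 changed 2-fold, and 5.38% of its calls were false. Every simulated gene had exactly the dispersion that the test assumes. These shares thus do not measure the error of calls in the real data. The windows before gene starts were searched on both strands. The values of 1 of the 31 pairs are not reported here. Ratios used TPM plus 0.1 and an exact sign-flip test. Python 3.11.15, pandas 2.3.3 and matplotlib 3.10.9 did the rest. Depth ran from 23000465 to 62090744 counts.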

Additional observations from a re-analysis of the deposited data

Results flagged for a closer look

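Of 87 values over 4 libraries (45 levels, 31 ratios and 11 role sums), 5 had 1 library standing apart by Dixon's criterion (chance gives about 1 in 20). Tmsb10 lay at 1497 TPM in replicate 2, against 1592 to 1599.9 TPM in the others. The log2 ratio of Arhgdib to Arhgdia was 1.00 in replicate 2, against 0.82 to 0.84. The summed TPM of Msn, Ezr and Rdx was 1603 in replicate 2, against 1484 to 1504 in the others. The log2 ratio of Actr3 to Actr3b was 11.16 in replicate 4, against 9.58 to 9.83, and Actr3b lay near the 0.1 TPM added. The log2 ratio of Myh9 to Myh10 was 11.21 in replicate 1, against 11.75 to 11.85, and Myh10 too was under 1 TPM.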

How the results depend on the processing

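Filters, scaling and dispersion left both calls, Coro2a and Arhgap18, in place, as did leaving out replicate 1, 2 or 4. Leaving out 1 replicate gave 0 to 2 called members, 0 being without replicate 3 (adjusted p 0.0583 for Coro2a and 1.00 for Arhgap18). The 4-library fit called 142 genes in all, against 88 with no low-count filter, 63 at a mean of at least 5 CPM and 60 to 85 with 1 replicate left out. Of the 25 ratios whose second gene had a mean of at least 1 TPM, 8 moved by over 1.5 times with main transcript lengths and 10 without the length correction. The number of pairs of 1 sign was 30 or 31 throughout. Without the length correction Dock2 over Dock8 turned to 0.53 and Rhog over Rhof to -0.28, and with main transcript lengths, an alternative chosen after seeing the data, Dock2 over Dock8 turned to 0.81 and Capza1 over Capza2 to -0.27. That change of length moved 37 of the 45 mean levels by more than 1 SD. The members' median stayed between 361 and 388 TPM. No paired analysis was possible because there is only 1 group.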

Other observations

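The WAVE complex that holds Wasf2 was looked at after its values were seen. Of each pair of related subunits 1 was much the higher: Nckap1l lay at 314 ± 7.64 TPM and Nckap1 at 4.46 ± 0.5401 TPM, and Cyfip2 at 286 ± 7.24 TPM and Cyfip1 at 1.59 ± 0.359 TPM. Brk1 lay at 317 ± 8.13 TPM, and of the Abi subunits Abi1 was highest at 115 ± 3.999 TPM, above Abi3 at 38.6 ± 4.62 TPM and Abi2 at 3.47 ± 0.411 TPM. The ranges of the 4 libraries did not overlap in any of these sets of related genes.

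Other genes of contraction were also read after the fact. The myosin light chain Myl12b lay at 563 ± 21.1 TPM and Myl12a at 228 ± 11.3 TPM, while Myl9 had no count in any library. Tropomyosin RNA came from Tpm4 (277 ± 22.9 TPM) and Tpm3 (246 ± 13.9 TPM), with Tpm1 at 22.7 ± 0.471 TPM and 0.00981 ± 0.0196 TPM for Tpm2.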
